A study of Rattus norvegicus with 6 samples.

Results

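A set of 10 genes of skeletal muscle determination, differentiation and myoblast fusion was followed in rat cells given an siRNA against eIF3m or a control siRNA. They are the MyoD family factors Myod1, Myog, Myf5 and Myf6, the MEF2 factors Mef2a, Mef2c and Mef2d, the progenitor factor Pax7, the transcriptional cofactor Eya4 and the fusion gene Tmem8c. Each was taken from the count files by an exact match of its symbol, 10 of 31011 genes, and 7 of them (Myod1, Myog, Mef2a, Mef2c, Mef2d, Tmem8c and Eya4) had enough counts to be tested.

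The 6 libraries fall into an eIF3m siRNA group (3 libraries) and a control siRNA group (3 libraries), both of rat cells labelled myocardial and NRVM and described as derived from embryonic heart muscle. Cells of both groups were kept in DMEM with serum, and the labels give no genotype, strain, passage or age of culture for either. The eIF3m subunit belongs to a translation initiation complex, and the comparison asks which transcripts differ when it is knocked down. Nothing in the labels says that the replicates of a group came from different cultures. The p-values below therefore cover the variation among these libraries alone, and it may be technical.

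In skeletal muscle, as known mainly from mouse, Myf5 and Myod1 commit progenitors to the lineage, Myog drives their differentiation, and Myf6 acts in later fibres. These basic helix-loop-helix proteins bind E-box sequences together with E proteins such as the product of Tcf3, and MEF2 proteins act with them on muscle genes. Heart muscle also uses MEF2 factors, but the MyoD family is known from skeletal muscle.

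The eIF3m siRNA libraries held 10061575, 2156186 and 7901395 counts for replicates 1, 2 and 3, and the control siRNA libraries held 7437285 to 8603602 counts. Levels are CPM, counts per 1000000 of the library total after TMM scaling (which sets libraries to a common level from the bulk of genes), and they are not corrected for gene length, so levels are compared between libraries and not between genes. Eif3m itself stood at 87.9 ± 3.93 CPM in eIF3m siRNA and 138 ± 2.58 CPM in control siRNA (SD, n = 3 each), a log2 fold change of -0.64 ± 0.05 SE (edgeR adjusted p = 1.41e-07). Of 12724 genes tested across both groups, 38.7% passed the edgeR quasi-likelihood test at an adjusted p under 0.05, with 2220 higher and 2700 lower in eIF3m siRNA, and DESeq2 called 29.6%. With no scaling factors the split was 4163 higher and 1680 lower, and the fold changes of all genes moved up by a median of 0.15 on the log2 scale.

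The labelled cell type was checked against markers. Of 18 cardiomyocyte markers 9 averaged under 1 CPM over the 6 libraries, and Myh7, Myl2 and Myl3 never exceeded 3 counts in a library, with Myl3 at 0 throughout. Myh6 averaged 0.743 CPM in control siRNA, Actc1 1.63, Ryr2 0.471 and Tnni3 0.363 CPM, all too low to test. These low values go against the labelled cell type, but other markers of the list were detected. In control siRNA Tnnt2 averaged 366 CPM, Pln 25.1, Nkx2-5 20.4, Hand2 19.1 and Gata4 8.70 CPM. The markers therefore do not settle the cell type, and the libraries are called by their siRNA. The summed cardiomyocyte list ranged from 321 to 335 CPM in eIF3m siRNA and from 643 to 647 CPM in control siRNA, with Tnnt2 its highest gene. Of its 6 tested genes 4 fell and 0 rose, where 21.2% of all genes tested fell and 17.4% rose. Of 16 skeletal myoblast markers, chosen without the 10 genes above, 7 averaged under 1 CPM, among them Chodl and Vgll2 at 0 counts throughout. That list summed to 362 to 372 CPM in eIF3m siRNA and 391 to 411 CPM in control siRNA, mostly from Cdh15, muscle cadherin. Of its 9 tested genes 2 rose and 6 fell, beside those same shares of 17.4% and 21.2%. The 6 that fell are counted again below, Cdh15 among fusion genes and the others among differentiation genes, so these lists are not independent. In these bulk samples, fewer cells of a type and less RNA per cell cannot be told apart. Blood and vessel transcripts stood apart most in 1 library. The 7 erythroid markers found summed to 5283, 197 and 43.7 CPM in eIF3m replicates 1, 2 and 3. In controls they summed to 27.8 to 63.6 CPM, so eIF3m replicate 2 also lay above every control library. The 10 endothelial markers summed to 208, 42.5 and 34.8 CPM in eIF3m replicates 1, 2 and 3 and to 39.3 to 51.6 CPM in controls. The 7 leukocyte markers were also highest in eIF3m replicate 1, at 53.1, 20.8 and 23.1 CPM in eIF3m replicates 1, 2 and 3. They were at 28.8 to 31.8 CPM in controls. Fibroblast markers (10 genes) summed to 17010 to 17769 CPM in eIF3m siRNA and 15801 to 16300 CPM in control siRNA, and smooth muscle markers (9 genes) to 3553 to 3730 CPM in eIF3m siRNA and 5252 to 5392 CPM in control siRNA. Most of the fibroblast sum was Col1a1, with means of 13266 CPM in eIF3m siRNA and 12050 CPM in control siRNA. Dcn was at 55.5, 2.21 and 1.80 CPM in eIF3m replicates 1, 2 and 3 and at 0.986 to 1.28 CPM in controls. Lum was also highest in replicate 1 (10.3, 3.98 and 2.89 CPM, against 0.256 to 0.863 CPM in controls). So was Pdgfra (8.79, 0.443 and 1.44 CPM, against 0.128 to 0.993 CPM in controls). Dcn and Lum lay above every control library in all 3 eIF3m libraries, while Pdgfra overlapped. Ddr2 was lowest in eIF3m replicate 1 (433, 496 and 455 CPM, against 606 to 630 CPM in controls). The part of these other cell types in the results below was not tested, but each fold change was also computed without eIF3m replicate 1. That fit still holds eIF3m replicate 2.

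**Figure D1:**
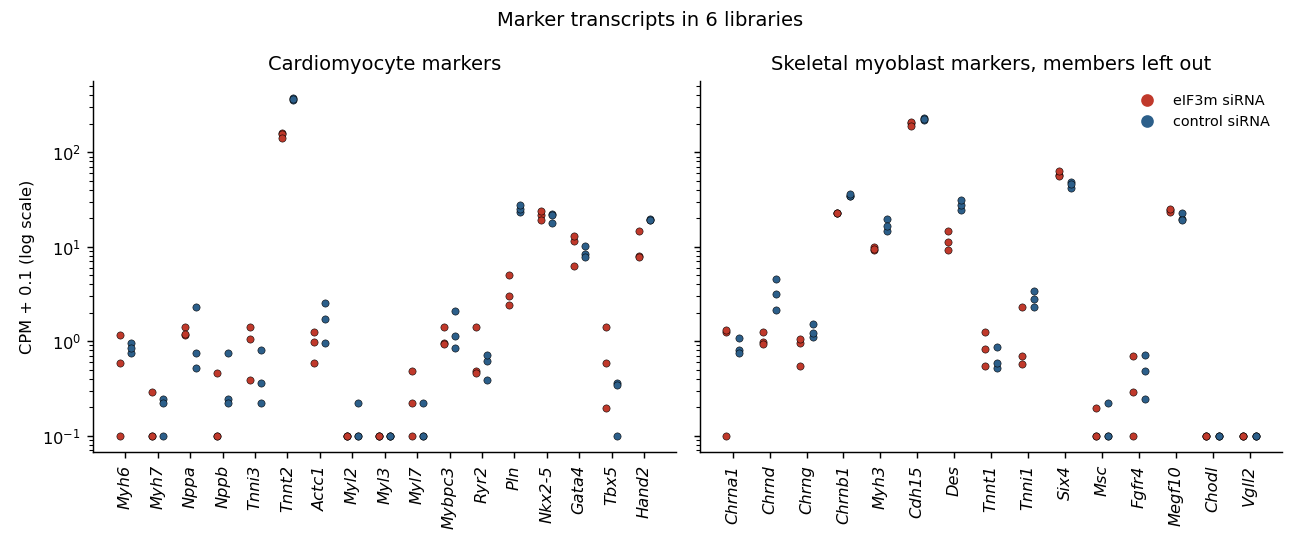
Level of markers of the labelled cell type (left, 17 of 18 drawn) and of skeletal myoblasts (right, 15 of 16 drawn), as CPM + 0.1 on a log scale, with 1 point per library. Myh7, Myl2 and Myl3 lie at or near the bottom in all 6 libraries, while Tnnt2 and Cdh15 lie above 100 CPM.

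Among the 10 genes, Myog, Tmem8c and all 3 MEF2 genes fell, Eya4 rose, and Myod1 did not pass the test. Myf5, Myf6 and Pax7 were at or near 0 and were not tested. Of the 7 tested genes, 1 rose and 5 fell, 6 calls in all against 38.7% of all genes tested, and 6 had libraries that did not overlap between the groups, against 48.6% of all genes tested. In all genes 17.4% rose and 21.2% fell. The 7 passed the filter on low counts and do not stand for all 10. The 10 genes and the 5 lists below were chosen with earlier results of these data known. Their shares beside those of all genes are therefore a description and not independent support.

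**Figure D2:**
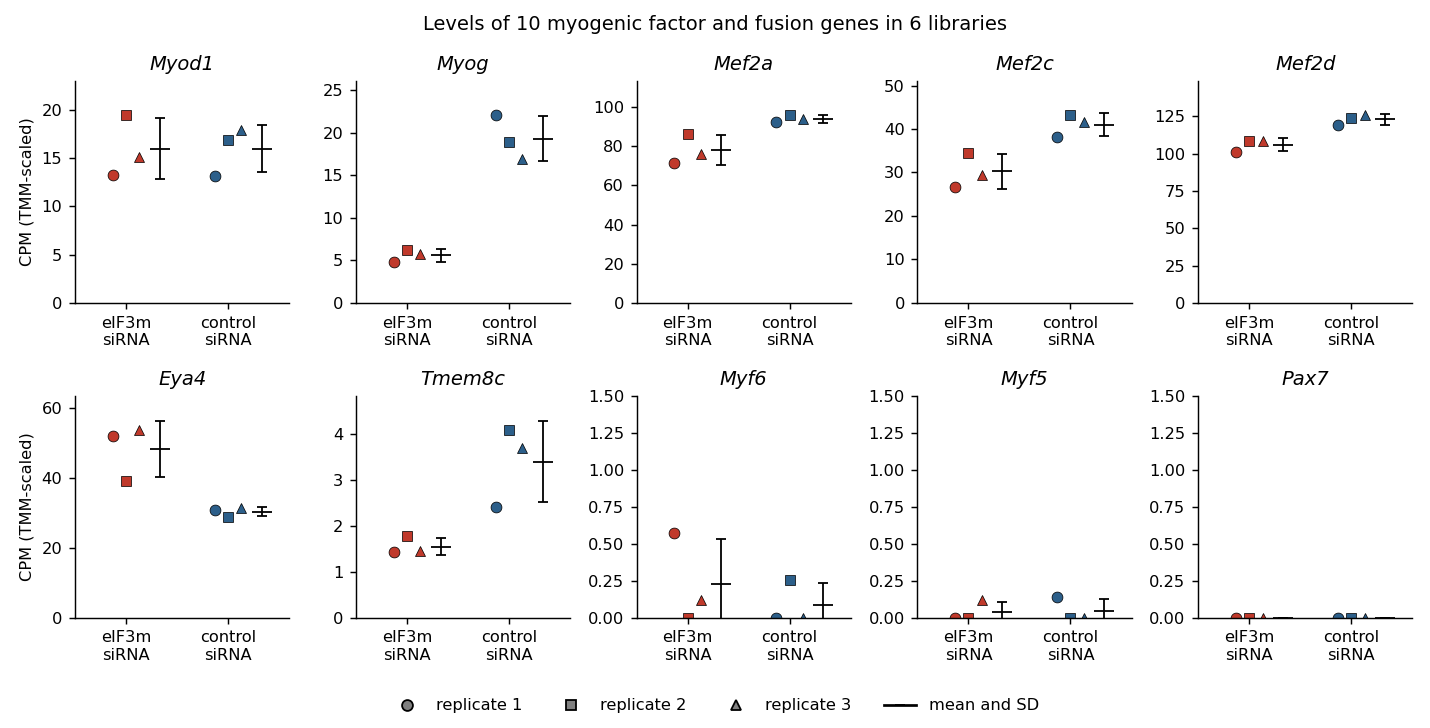
CPM of each of the 10 genes in every library, with circle, square and triangle for replicates 1, 2 and 3, and the mean with its SD beside them. Myog lies near 5 CPM in eIF3m siRNA and near 20 CPM in control siRNA, Eya4 lies higher in eIF3m siRNA, and Pax7 is at 0 in all 6 libraries.

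Myog, myogenin, had the largest change of the 7. It stood at 4.78, 6.20 and 5.77 CPM in eIF3m replicates 1, 2 and 3, against 22.1, 18.9 and 16.9 CPM in control replicates 1, 2 and 3. These values rest on 50, 14 and 48 counts in eIF3m siRNA and on 156, 148 and 137 counts in control siRNA. The highest eIF3m library lay well below the lowest control library. The log2 fold change was -1.84 ± 0.17 SE (95% interval -2.20 to -1.47), a fall of 72.0% (edgeR quasi-likelihood test, adjusted p = 5.77e-07), and it was the 21st lowest among the 12724 genes. It passed in all 16 alternatives, with log2 fold changes from -1.93 to -1.69, and stood at -1.70 without eIF3m replicate 1.

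Because Myog moved most, its promoter is shown, as the 250 bases before and 50 after the RefSeq gene start (GRCr8, chr13:48297226-48297525, + strand), in which capitals mark matches to motifs of muscle factors. The motifs searched on both strands were the E-box CANNTG, a MEF2 core CTANNNNTA and the MEF3 motif TCAGGTTTC, which the Six4 protein binds in mouse.
Myog: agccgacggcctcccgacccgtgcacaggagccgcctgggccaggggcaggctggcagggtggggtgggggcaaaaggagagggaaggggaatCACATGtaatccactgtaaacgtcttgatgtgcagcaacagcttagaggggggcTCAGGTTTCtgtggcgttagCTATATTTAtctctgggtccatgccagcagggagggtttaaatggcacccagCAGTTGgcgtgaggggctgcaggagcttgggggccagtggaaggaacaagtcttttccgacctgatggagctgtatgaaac
The window held 2 E-boxes, CACATG from base -157 and CAGTTG from base -31 relative to the start, a MEF2 core, CTATATTTA, from base -83, and the MEF3 letters from base -103. Of 33465 promoters of this length in the table, 72.1% held an E-box, 22.4% a MEF2 core and 0.451% the MEF3 letters. A match is a description of the letters and not a bound site.

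Myod1, which commits cells to the muscle lineage, was at 13.3, 19.5 and 15.2 CPM in eIF3m replicates 1, 2 and 3, against 13.2, 16.9 and 17.9 CPM in control replicates 1, 2 and 3. The groups overlapped, and eIF3m replicate 2 was the highest library of all. The log2 fold change was -0.09 ± 0.16 SE (edgeR adjusted p = 0.705), and its 95% interval of -0.42 to 0.25 leaves room for a modest change either way. Its sign turned with no scaling factors (0.06), with libraries thinned to the smallest total (0.44) and without eIF3m replicate 1 (0.04) or control replicate 3 (0.0050), and it passed in 0 of 16 alternatives. The intervals of Myog and Myod1 did not overlap.

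The ratio of Myog to Myod1 counts within a library needs no scaling factor. It was 0.360, 0.318 and 0.381 in eIF3m replicates 1, 2 and 3, against 1.68, 1.12 and 0.945 in control replicates 1, 2 and 3. All 3 eIF3m libraries lay below all 3 control libraries, and the means were 0.353 ± 0.0319 in eIF3m siRNA and 1.25 ± 0.382 in control siRNA (SD, n = 3 each), 3.54-fold apart. Counts are not per length, so the ratio compares libraries and does not say which transcript was more abundant.

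**Figure D3:**
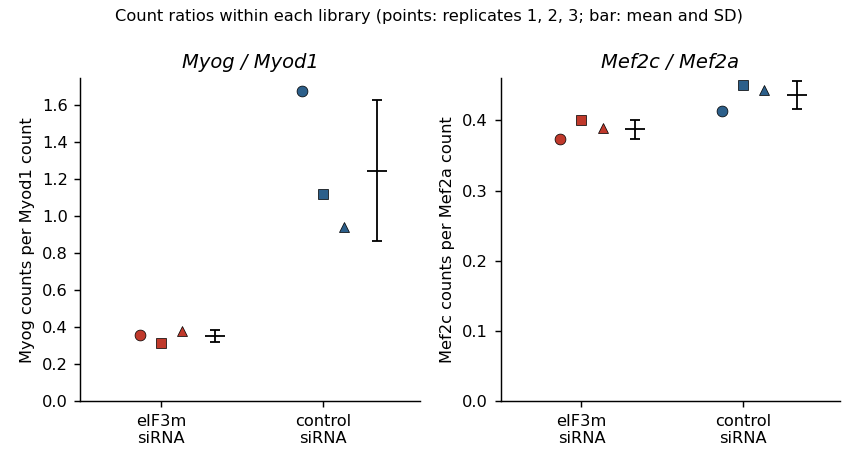
Counts of Myog per count of Myod1 (left) and of Mef2c per count of Mef2a (right) in each library, with the mean and SD beside the points. Both ratios are lower in all 3 eIF3m siRNA libraries than in any control siRNA library.

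The other MyoD family genes and the progenitor factor were close to silent. Myf5 had 0, 0 and 1 counts in eIF3m replicates 1, 2 and 3 and 1, 0 and 0 in control replicates 1, 2 and 3. Myf6 had 6, 0 and 1 counts in eIF3m replicates 1, 2 and 3 and 0, 2 and 0 in control replicates 1, 2 and 3. Its 6 counts came from eIF3m replicate 1, the deepest library. Pax7, which marks satellite cells, had 0 counts in every library, and a count of 0 allows up to 3 counts, or 0.287 to 1.33 CPM in eIF3m siRNA and 0.370 to 0.425 CPM in control siRNA. These limits cover counting error only. The widest limit, 1.33 CPM, belongs to eIF3m replicate 2, the smallest library. The 6 counts of Myf6 in eIF3m replicate 1 (0.574 CPM) lay above that library's limit of 0.287 CPM.

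All 3 MEF2 members, MADS-box factors that act in skeletal and heart muscle, fell. Mef2c was at 26.7, 34.5 and 29.5 CPM in eIF3m replicates 1, 2 and 3, against 38.2, 43.2 and 41.5 CPM in control replicates 1, 2 and 3. The groups did not overlap, and the log2 fold change was -0.50 ± 0.10 SE (a fall of 29.1%, edgeR adjusted p = 7.06e-04). Mef2a was at 71.5, 86.3 and 75.8 CPM in eIF3m replicates 1, 2 and 3, against 92.2, 96.0 and 93.6 CPM in control replicates 1, 2 and 3. The groups were again apart, by less than the spread within the eIF3m libraries, and the log2 fold change was -0.31 ± 0.06 SE (edgeR adjusted p = 0.00108). Mef2d was at 101, 108 and 108 CPM in eIF3m replicates 1, 2 and 3, against 119, 124 and 126 CPM in control replicates 1, 2 and 3. No library of one group reached the other, and the log2 fold change was -0.22 ± 0.05 SE (edgeR adjusted p = 0.00410).

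Mef2c passed in 16 of 16 alternatives, Mef2a in 15 and Mef2d in 14. With no scaling factors Mef2d was at -0.07 (edgeR adjusted p = 0.278) and Mef2a at -0.16 (0.0473), so the size of these smaller falls depends on the scaling. With thinned libraries Mef2a (-0.21, edgeR adjusted p = 0.0911) and Mef2d (-0.09, 0.398) also missed the threshold. The ratio of Mef2c to Mef2a counts, which no scaling enters, was 0.373, 0.40 and 0.389 in eIF3m replicates 1, 2 and 3, against 0.414, 0.451 and 0.443 in control replicates 1, 2 and 3. The groups did not overlap. The ratio of Mef2d to Mef2a counts did overlap, at 1.37 ± 0.096 in eIF3m siRNA and 1.31 ± 0.032 in control siRNA (SD, n = 3 each). Mef2b, the fourth MEF2 gene, had a log2 fold change of 0.41 ± 0.33 SE and did not pass (edgeR adjusted p = 0.356); like Id4 it was named after its value was seen.

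The Mef2a promoter (GRCr8, chr1:130392113-130392412, - strand) is shown because it holds a MEF2 core close to the gene start, here in capitals.
Mef2a: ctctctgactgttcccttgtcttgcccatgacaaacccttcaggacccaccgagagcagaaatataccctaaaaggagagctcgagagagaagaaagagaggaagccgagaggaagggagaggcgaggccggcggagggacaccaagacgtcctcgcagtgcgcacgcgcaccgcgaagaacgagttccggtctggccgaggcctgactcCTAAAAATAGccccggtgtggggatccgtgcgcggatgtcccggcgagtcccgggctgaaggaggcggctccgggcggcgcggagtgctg
The stretch CTAAAAATAG holds the core on both strands, in matches that overlap, from base -40 to base -31. No E-box and no MEF3 letters were in this window. Mef2d held 1 MEF2 core, from base -244, and no E-box.

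Tmem8c encodes myomaker, the membrane protein that lets myoblasts fuse, and RefSeq now calls it Mymk. It was at 1.43, 1.77 and 1.44 CPM in eIF3m replicates 1, 2 and 3, against 2.41, 4.09 and 3.70 CPM in control replicates 1, 2 and 3. The counts were 15, 4 and 12 in eIF3m siRNA and 17, 32 and 30 in control siRNA. The groups did not overlap, and the log2 fold change was -1.19 ± 0.35 SE (95% interval -1.93 to -0.45, edgeR adjusted p = 0.0128). This call is near the threshold: it was missed without eIF3m replicate 3 (-1.17, edgeR adjusted p = 0.0506), control replicate 2 (-1.04, 0.0637) or control replicate 3 (-1.13, 0.0515), and held in 11 of the 14 alternatives that tested it. Per Myod1 count, Tmem8c stood at 0.108, 0.0909 and 0.0952 in eIF3m replicates 1, 2 and 3 and at 0.183, 0.242 and 0.207 in control replicates 1, 2 and 3. Per Myog count it ran the other way, at 0.279 ± 0.0258 in eIF3m siRNA and 0.181 ± 0.0627 in control siRNA (SD, n = 3 each), with no overlap. The nearest libraries, eIF3m replicate 3 and control replicate 3, were at 0.25 and 0.219. Few counts enter this ratio, 4 of Tmem8c and 14 of Myog in eIF3m replicate 2, and the SD does not cover their counting error.

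Eya4, a cofactor of homeodomain transcription factors that act upstream of the MyoD family, was the member that rose. It was at 52.0, 39.0 and 53.8 CPM in eIF3m replicates 1, 2 and 3, against 30.8, 28.8 and 31.4 CPM in control replicates 1, 2 and 3. Every eIF3m library lay above every control library, with eIF3m replicate 2 nearest to them. The log2 fold change was 0.73 ± 0.10 SE, a rise of 65.6% (edgeR adjusted p = 2.41e-05), and it passed in 16 of 16 alternatives with values from 0.66 to 0.87. Per Myod1 count, Eya4 stood at 3.15 ± 1.02 in eIF3m siRNA and 1.93 ± 0.348 in control siRNA (SD, n = 3 each), and the groups overlapped, with eIF3m replicate 2 below control replicate 1.

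The Eya4 promoter (GRCr8, chr1:23991181-23991480, + strand) is shown beside that of Myog as the member that moved the other way, with its single match, an E-box, in capitals.
Eya4: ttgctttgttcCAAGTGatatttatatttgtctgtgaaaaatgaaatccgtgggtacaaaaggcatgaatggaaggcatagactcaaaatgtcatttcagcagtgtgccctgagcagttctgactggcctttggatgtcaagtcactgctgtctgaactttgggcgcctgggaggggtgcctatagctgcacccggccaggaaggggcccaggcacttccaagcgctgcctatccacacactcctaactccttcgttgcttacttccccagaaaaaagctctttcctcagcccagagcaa
The E-box, CAAGTG, began at base -239, and the window held neither a MEF2 core nor the MEF3 letters. RefSeq windows were matched for 7 of the 10 genes. Myod1, Mef2c and Tmem8c were not matched.

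**Figure D4:**
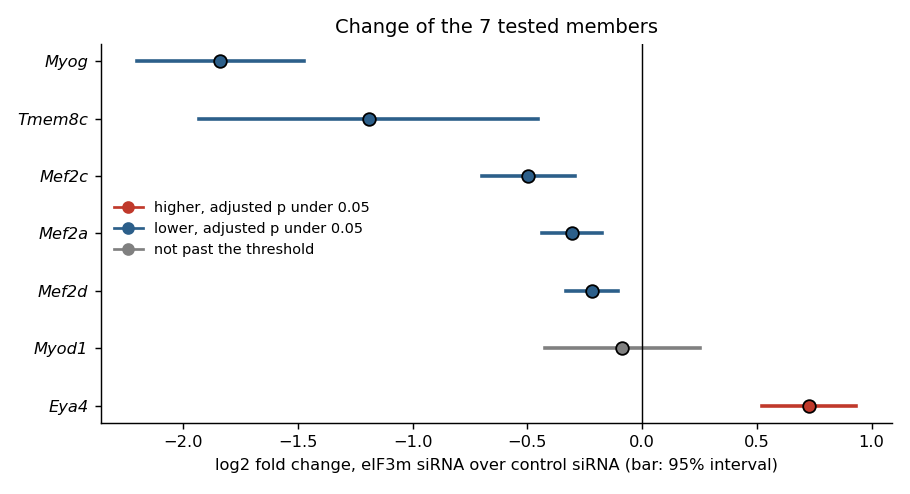
Log2 fold change of eIF3m siRNA over control siRNA for the 7 tested genes, with 95% intervals as bars. Myog (-1.84) lies farthest to the left, the 3 MEF2 genes lie between -0.50 and -0.22, the interval of Myod1 spans 0, and Eya4 (0.73) alone lies to the right.

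Within the eIF3m group, replicate 1 was the lowest and replicate 2 the highest library for Myod1, Myog, Mef2a, Mef2c and Tmem8c, while for Eya4 replicate 2 was the lowest. Replicate 1 is the library with the erythroid sum of 5283 CPM, and replicate 2 the one with 2156186 counts. Without replicate 1, Mef2c stood at -0.41, Mef2a at -0.25, Mef2d at -0.18, Tmem8c at -1.15 and Eya4 at 0.70 on the log2 scale. All 5 passed there, Tmem8c at an edgeR adjusted p of 0.0487.

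Other regulators of myogenesis were called about as often as genes in general. Of 31 listed, 20 were tested, and 4 rose (20% against 17.4% of all genes tested) and 3 fell (15% against 21.2%), with a median log2 fold change of 0.06 against 0.01 over all genes tested. Six4, whose protein the Eya cofactors join, was at 57.4, 55.3 and 64.0 CPM in eIF3m replicates 1, 2 and 3, against 48.4, 41.3 and 46.6 CPM in control replicates 1, 2 and 3. The groups did not overlap, and Six4 rose by 0.39 ± 0.08 SE on the log2 scale (edgeR adjusted p = 8.32e-04). The E protein gene Tcf3 rose by 0.25 ± 0.05 and Nf1x, the rat file's name for the nuclear factor gene Nfix, by 0.39 ± 0.07. Vgll3, a cofactor of TEAD proteins, fell by 0.46 ± 0.06 SE on the log2 scale, and Kat2b, an acetyltransferase that acts with Myod1, fell by 0.63 ± 0.11, a call missed with thinned libraries (-0.54, edgeR adjusted p = 0.0515). Eya1, another Eya gene, was at 24.98 ± 0.347 CPM in eIF3m siRNA and 30.6 ± 2.36 CPM in control siRNA (SD, n = 3 each). It fell by 0.29 ± 0.09 SE on the log2 scale (edgeR adjusted p = 0.0229), opposite in sign to Eya4. The call of Eya1 was missed without eIF3m replicate 1 (edgeR adjusted p = 0.0816) or 3 (0.0552), without control replicate 2 (0.0855) or 3 (0.0748), and with upper-quartile scaling (0.0705), no scaling factors (0.221), thinned libraries (0.415) or DESeq2 (0.108).

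Genes whose products restrain myogenic factors counted 9 risen (39.1% against 17.4% of all genes tested) and 5 fallen (21.7% against 21.2%) of 23 tested, of 29 listed, with a median log2 fold change of 0.11. The Id genes, whose proteins take E proteins away from MyoD family partners, rose in 3 of 4 cases. Id2 was at 23.1, 23.5 and 25.02 CPM in eIF3m replicates 1, 2 and 3, against 14.2, 13.2 and 12.7 CPM in control replicates 1, 2 and 3, a log2 fold change of 0.84 ± 0.11 SE (edgeR adjusted p = 2.93e-05). Id1 rose by 0.41 ± 0.07 and Id3 by 0.29 ± 0.05 on the log2 scale, and Id4 (0.63 ± 0.25 SE) did not pass (edgeR adjusted p = 0.0592). The largest rise of the list was that of Twist2 (1.49 ± 0.28 SE), a helix-loop-helix repressor of MyoD and MEF2 proteins, which was named after its value was seen. The polycomb methyltransferase Ezh2 rose by 0.54 ± 0.07. Zfp238, known in mouse as a repressor of Id genes and so no simple inhibitor of myogenesis, rose by 0.57 ± 0.06. The 5 that fell were Hdac9 (-1.30 ± 0.30 SE), Snai1 (-0.49 ± 0.06), Bhlhe40 (-0.42 ± 0.05), Hdac5 (-0.36 ± 0.05) and Ccnd1 (-0.20 ± 0.03), of which Hdac5 and Hdac9 encode deacetylases that bind MEF2 proteins, Snai1 and Bhlhe40 E-box repressors and Ccnd1 cyclin D1. Of the other deacetylases of the MEF2-binding class, Hdac4 (-0.14 ± 0.07) and Hdac7 (-0.06 ± 0.06) did not pass, and their signs turned with no scaling factors (0.0034 for Hdac4 and 0.0899 for Hdac7). Without eIF3m replicate 1 Hdac7 passed (-0.13, edgeR adjusted p = 0.0366), and Ccnd1 missed the threshold with no scaling factors (-0.05, 0.147).

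Fusion genes other than Tmem8c counted 2 risen (5.56% against 17.4% of all genes tested) and 17 fallen (47.2% against 21.2%) of 36 tested, of 48 listed, with a median of -0.12. Mymx, which encodes the second muscle fusion protein, was not matched to a symbol in the files. Dysf, dysferlin, a membrane repair protein, was at 112, 104 and 109 CPM in eIF3m replicates 1, 2 and 3, against 276, 279 and 288 CPM in control replicates 1, 2 and 3, a log2 fold change of -1.37 ± 0.05 SE (edgeR adjusted p = 1.59e-11). The integrin chains Itga3 and Itgb1 fell by 0.98 ± 0.05 and 0.95 ± 0.02 SE, the metalloprotease Adam12 by 0.66 ± 0.05, the ferlin Myof by 0.33 ± 0.03 and Ptgfrn, a partner of tetraspanins, by 0.29 ± 0.03 on the log2 scale. Many of these genes are also expressed outside muscle. Cdh15 fell by 0.16 ± 0.05 SE (edgeR adjusted p = 0.0225). That call was missed without eIF3m replicate 3 (edgeR adjusted p = 0.0874), control replicate 1 (0.0885) or control replicate 3 (0.0727), and also when scaling was by upper quartile (0.169) or left out (0.843) or libraries were thinned (0.229). The pair that rose was Cdon, a cell surface receptor that promotes myogenesis (0.63 ± 0.07 SE), and Anxa1, an annexin (0.19 ± 0.03). Without eIF3m replicate 3 the number that rose was 4.

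Muscle differentiation genes, many of them known targets of the MyoD and MEF2 proteins, counted 2 risen (5.41% against 17.4% of all genes tested) and 25 fallen (67.6% against 21.2%) of 37 tested, of 58 listed, with a median of -0.86. The 21 others found had too few counts. This list too was chosen with earlier results known, so its shares are a description. The sarcomere gene Acta1 was at 6.98, 7.53 and 5.89 CPM in eIF3m replicates 1, 2 and 3, against 22.8, 22.0 and 23.4 CPM in control replicates 1, 2 and 3 (log2 fold change -1.78 ± 0.14 SE, edgeR adjusted p = 9.47e-08). Lmod3, which nucleates thin filaments, fell by 2.38 ± 0.21 SE on the log2 scale, fast troponin C, Tnnc2, by 1.05 ± 0.07, slow and cardiac troponin C, Tnnc1, by 0.97 ± 0.06, the intermediate filament gene Des by 1.23 ± 0.16 and embryonic myosin, Myh3, by 0.86 ± 0.15. Trim63 and Fbxo32, which encode ubiquitin ligases of muscle wasting rather than differentiation proteins, fell by 0.93 ± 0.08 and 1.89 ± 0.17. Chrna1 (0.783 ± 0.679 CPM in eIF3m siRNA and 0.778 ± 0.183 CPM in control siRNA) and Ckm (0.852 ± 0.525 CPM in eIF3m siRNA and 1.19 ± 0.442 CPM in control siRNA; SD, n = 3 each) were too low to test. The members that rose were Cdkn1a (0.26 ± 0.07 SE), a cell cycle inhibitor also induced by p53, and Itgb1bp2 (1.13 ± 0.39), which encodes melusin. Itgb1bp2 missed the threshold without eIF3m replicate 2 (edgeR adjusted p = 0.0819) or 3 (0.109) and without control replicate 1 (0.109), 2 (0.0645) or 3 (0.0732), and without eIF3m replicate 3 or any 1 control library 1 gene of the list rose. It also missed it with no filter (0.0564) and with DESeq2 (0.0689). Without eIF3m replicate 1, 21 fell.

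**Figure D5:**
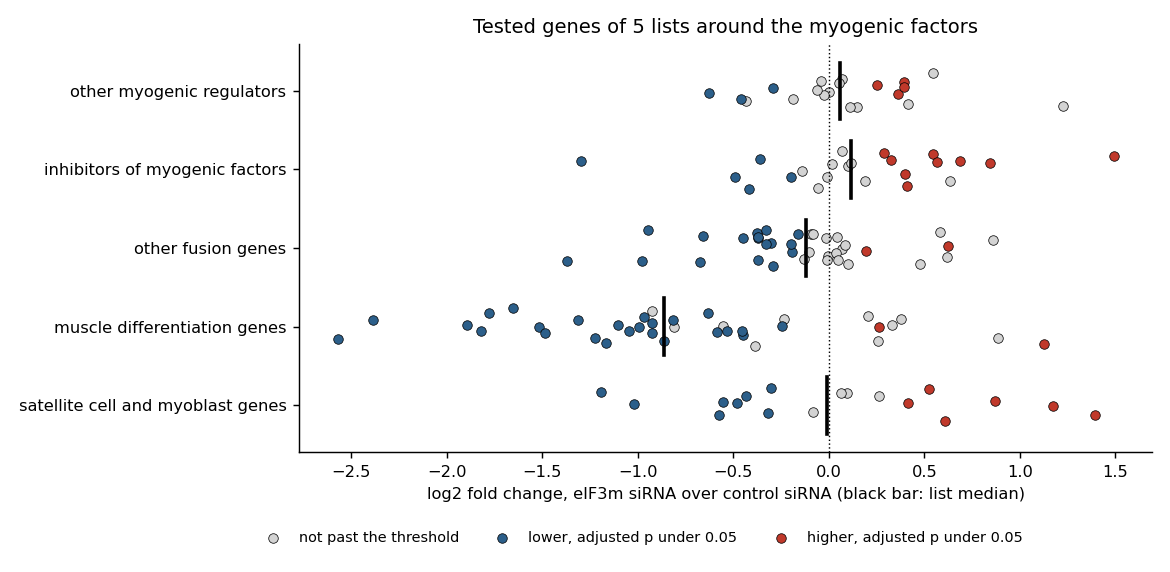
Log2 fold change of eIF3m siRNA over control siRNA for each tested gene of the 5 lists, with the list median as a black bar and colour for genes past the threshold. The median of muscle differentiation genes lies at -0.86, and those of the other lists lie between -0.12 and 0.11.

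Promoters of the fallen differentiation genes were searched for the same motifs. A window was matched for 20 of the 25, and 19 held an E-box, 13 the E-box CAGCTG, which MyoD proteins prefer, 8 a MEF2 core and 0 the MEF3 letters. Among all 33465 promoters CAGCTG was held by 15.1%. Of the 9 matched promoters of listed genes that did not pass, 9 held an E-box, 5 CAGCTG and 4 a MEF2 core, so the motifs were also common in genes with no call. The windows of Tnnc2 (GRCr8, chr3:173935290-173935589, - strand) and Acta1 (GRCr8, chr19:68784145-68784444, - strand) are shown as the matched pair with the lowest p, with E-boxes in capitals.
Tnnc2: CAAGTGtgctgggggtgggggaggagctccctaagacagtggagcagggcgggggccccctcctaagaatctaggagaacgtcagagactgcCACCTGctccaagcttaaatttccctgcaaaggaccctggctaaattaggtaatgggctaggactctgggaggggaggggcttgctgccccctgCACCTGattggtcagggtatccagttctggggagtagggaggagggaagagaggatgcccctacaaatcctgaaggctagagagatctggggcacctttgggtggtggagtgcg
Acta1: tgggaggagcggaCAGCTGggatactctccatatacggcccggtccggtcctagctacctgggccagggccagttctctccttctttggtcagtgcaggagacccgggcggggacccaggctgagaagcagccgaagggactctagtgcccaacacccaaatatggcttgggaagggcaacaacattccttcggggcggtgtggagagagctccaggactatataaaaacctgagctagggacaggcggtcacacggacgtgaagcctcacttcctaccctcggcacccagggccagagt
Tnnc2 held 3 E-boxes, none of them CAGCTG, and Acta1 held 1, which was CAGCTG.

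Genes of satellite cells and myoblasts were called in both directions, with 6 risen (33.3% against 17.4% of all genes tested) and 8 fallen (44.4% against 21.2%) of 18 tested, of 27 listed, and a median of -0.01. Without control replicate 1 the number that rose was 3. The Notch receptor gene Notch3 was at 72.0, 69.1 and 69.3 CPM in eIF3m replicates 1, 2 and 3, against 27.4, 26.1 and 27.0 CPM in control replicates 1, 2 and 3 (log2 fold change 1.39 ± 0.07 SE, edgeR adjusted p = 4.70e-10). Notch3 is also among the 9 smooth muscle markers summed above, so its rise is not particular to this list. Notch1 rose by 1.17 ± 0.11 SE on the log2 scale. The laminin receptor gene Itga7 fell by 1.19 ± 0.02, dystroglycan, Dag1, by 1.02 ± 0.04, the adhesion molecule Ncam1 by 0.58 ± 0.04 and the heparan sulphate proteoglycan Gpc1 by 0.48 ± 0.03.

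Over the 6 libraries, and among 10485 other tested genes with a mean of at least 5 CPM, the log2 levels most like those of Myog were of Jak3, Zmpste24, Soat1, Slc30a1 and Gadd45a (Pearson r 0.998 to 0.999). Those most like Mef2c were of Lmbrd1, Picalm, Manba, Ap1m1 and Mef2a (r 0.990 to 0.996). These values describe 6 points that fall into 2 groups and share their libraries and scaling. The log2 fold change of Zmpste24, a prelamin protease, was -0.99 ± 0.09 SE, that of Jak3 -0.46 ± 0.06 and that of Lmbrd1, a lysosomal cobalamin transporter, -0.58 ± 0.08.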

How the data were processed

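RNA sequencing counts per gene were analysed from 6 rat libraries, grouped by their titles into 3 eIF3m siRNA and 3 control siRNA libraries. The authors deposited raw counts, 1 file per library, not normalised. The submitters' processing notes name limma, DESeq2, featureCounts, HISAT2 2.2.1 and Trimmomatic 0.40, and the build rn6, without a role or order. Strand and multi-mapping settings and the annotation were not given in the sources used, which leaves values of overlapping or near-identical genes uncertain. The protocol text also describes a medium with dexamethasone, isobutylmethylxanthine and insulin, and whether these cells received it is not stated.

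Of 31038 rows, 27 symbols turned into dates (0.203% to 0.216% of counts) were left out. Counts were fitted in R 4.3.3 with edgeR 4.0.16 (filterByExpr with minimum count 10 and minimum total 15, TMM, quasi-likelihood F-test, no covariate, two-sided, Benjamini-Hochberg over 12724 genes, threshold 0.05). The SE is the log2 fold change divided by the root of F, and 95% intervals use the fit's degrees of freedom. Alternatives were other scalings and filters, DESeq2 1.42.0, limma 3.58.1 (voom), robust dispersion, a replicate block, thinned libraries and each library left out. The procedure was tested on simulated counts. Promoter windows are from RefSeq, build GRCr8, which differs from the build of the files and was used for sequence and names alone.

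The members and lists were chosen with earlier results of these data known. Named genes were taken by rule: the 10 members, Eif3m, in each of 5 lists the 6 called genes with the lowest p and those of a direction taken by 5 or fewer, and a fixed set reported whatever its values. The 5 genes most correlated with Myog and with Mef2c were named too. Some genes the rule takes are not reported here.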

Additional observations from a re-analysis of the deposited data

How the results depend on the processing

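Of the members, Myog, Mef2c and Eya4 kept their direction and their call in all 16 alternatives. The number of genes higher and lower was 4163 and 1680 with no scaling factors, and 1375 genes were higher with thinned libraries, where 2 members fell; thinning leaves fewer counts, and Tmem8c was then not tested. Among other regulators 9 rose with no scaling factors and 1 fell with thinned libraries, and 14 inhibitors rose with no scaling factors. Fusion genes that rose numbered 5 with upper-quartile scaling, 9 with no scaling factors, 7 with no filter and 2 to 4 with a library left out. Differentiation genes that rose numbered 4 with no scaling factors, 1 with no filter, the stricter filter, DESeq2 or thinned libraries, and 1 to 2 with a library left out. Satellite cell genes that rose numbered 3 to 6 with a library left out. Myod1 was at 0.0603 with no scaling factors, 0.44 with thinned libraries and -0.20 to 0.043 with a library left out. Hdac4 turned to 0.0034 with no scaling factors, and Hdac7 to 0.0119 with upper-quartile scaling and 0.0899 with no scaling factors. Of the values for single genes, 784 kept sign and call, 35 lost the call, 1 gained it and 7 turned in sign. No scaling factors moved all genes by a median of 0.15; the other causes were not tested. Deviations from the group means showed no sign of pairing by replicate number (same-number correlations 0.03, -0.0054 and 0.0077). They cannot exclude a shared batch, since the low depth of eIF3m replicate 2 and the blood transcripts of replicate 1 also enter them. With a replicate block 2123 genes were higher and 2632 lower, and Eya1 missed the threshold (edgeR adjusted p = 0.0504). Depth limits Myf5, Myf6, Pax7 and Tmem8c, above all in eIF3m replicate 2.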
